A study of Homo sapiens with 4 samples.

Results

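The 56 genes described here are human tumour suppressors, oncogenes and fusion partners, and every BrdU peak that overlapped their annotated gene intervals (GENCODE release 44, hg38) was counted. The members were named as a list, each was found once among 20033 protein-coding genes, and together they covered 11.7 Mb of gene interval, with a median length of 138 kb and a range of 7.52 kb (MYC) to 1217 kb (RUNX1). The cells were BJ-hTERT, a line of human foreskin fibroblasts immortalised with telomerase, held without serum and then released so that they entered S-phase together. Newly made DNA was labelled with the thymidine analogue BrdU and sequenced at 16, 19, 22, 24 and 28 h after release in 2 repeats, and local peaks of BrdU signal over Input DNA, called at each time, were pooled in 1 list of 33295 positions. The list names neither the time nor the repeat of a peak and holds no height, so no replicate spread and no test of a difference could be had, and the depth of sequencing behind each peak is unknown.

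A BrdU peak marks a place where, averaged over many cells, labelled nucleotides pile up relative to the flanks. The study read such places as hotspots where replication forks slow down or pause. Fork pausing matters in cancer genes because a stalled fork that is not restarted can break and be joined to other DNA. Tumour suppressors such as RB1 and NF1 are often lost by deletion, receptor tyrosine kinases such as MET and EGFR are amplified or mutated, and genes such as BCR, ABL1, EWSR1 and ERG are joined to partners by breaks that cluster in certain introns. Peaks that overlapped or touched were merged into 1 site, and the depth of a site is the largest number of peaks over any one of its bases. The deepest sites of the list had depth 5. Whether overlapping peaks came from different times or from different repeats cannot be read from the list.

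The 56 genes held 170 BrdU peaks in 132 merged sites, out of 25634 sites in the list. Of the 56 genes, 23 (41.1%) had at least 1 peak, against 21.2% of all protein-coding genes, but long genes are hit more often and the members were long. No member under 30 kb had a peak (0 of 6, against 6.87% of all protein-coding genes of that length), 4 of 17 members of 30 to 100 kb did (against 29.2%), and 19 of 33 members over 100 kb did (against 49.4%). Each member was next set beside the other protein-coding genes of its chromosome whose length lay within 1.3-fold of its own (median 68 such genes). From the share of those genes that held a peak, 23.9 of the 56 would have been hit, so the number hit was close to that of genes of like length. The median number of sites per gene was 0 in the 56 genes and 0 in all protein-coding genes.

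The sites were spread very unevenly. RUNX1 alone held 52 sites, 39.4% of the total, and the 4 genes with the most sites (RUNX1, NOTCH2, MET and NF1) held 86. Another 4 genes had 4 or more sites, 7 had 2 or 3, 8 had 1, and 33 had none. The genes of like length would have given 93.7 sites over the 56 intervals, so that observed sites were 1.41 times the expected number (exact Poisson 95% interval 1.18 to 1.67, counting error of the observed sites only). Without RUNX1 the other 55 genes held 80 sites where 92.3 were expected, a ratio of 0.867 (0.687 to 1.08). The ratio above 1 thus rested on 1 gene, whose annotated interval is unusual and is described next. Of the 56 genes, 22 had more sites per kb than the median of their genes of like length. Many of these medians were 0, and of the 23 genes with a site only FLI1 was not above its median. This count therefore adds little to the number of genes hit.

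**Figure D1:**
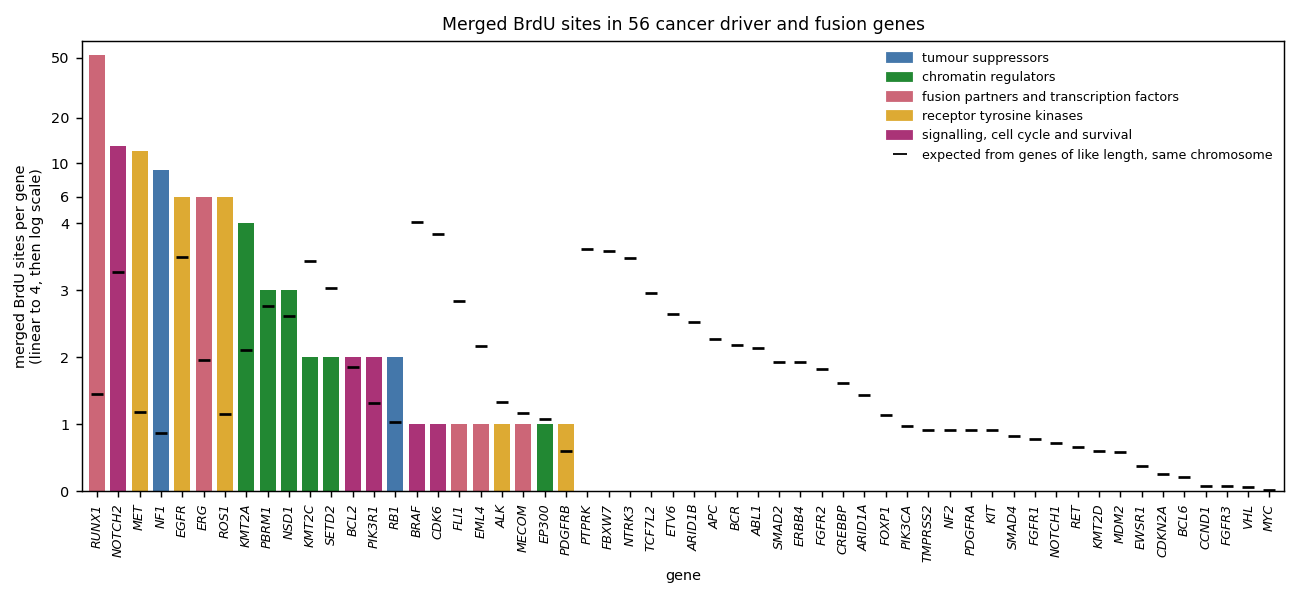
Merged BrdU sites in each of the 56 genes (bars, coloured by role, vertical axis linear to 4 and log above) with the number expected from protein-coding genes of like length on the same chromosome (black dashes). RUNX1 reached 52 sites, 22 other genes held 1 to 13, and 33 genes held none.

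RUNX1, a transcription factor of blood stem cells that is joined to ETV6 and other genes in leukaemia, had 65 peaks in 52 sites over chr21:34787801-36004667 (minus strand). Its canonical transcript covers only 262 kb of this 1217 kb, and of 18 annotated transcripts only 1 is longer than 300 kb. Inside the canonical transcript lay 9 sites, or 3.44 per 100 kb (1.57 to 6.53). The remaining 43 sites lay upstream of its start, at 4.50 per 100 kb (3.26 to 6.06), and none of them overlapped another annotated gene. The first 250 kb upstream of the start, a limit set for this description, held 27 sites or 10.8 per 100 kb (7.12 to 15.7), with 9 in each of the 50 kb steps that begin 150 and 100 kb upstream, while the 705 kb beyond it held 16 sites or 2.27 per 100 kb. For chromosome 21 as a whole, where the list had 451 sites, the density was 1.13 per 100 kb of known sequence.

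Only 1 other gene of chromosome 21, the adhesion gene DSCAM, came within 2-fold of the length of RUNX1, and it held 1 site, so the expected number for RUNX1 (1.46) rested on a single gene. Of 67 autosomal genes within 1.3-fold of its length, 47 held a site, with a median of 2 and a maximum of 18 in PTPRN2. When every gene was reduced to its canonical transcript, RUNX1 had 9 sites against 2.16 expected from 7 genes of chromosome 21. On that scale 49 of 643 autosomal genes of like length held at least as many. Neighbouring RUNX1 sites were a median of 11.9 kb apart, and 9 of 51 gaps were under 1 kb. Whether the upstream sites lie in DNA that these fibroblasts transcribe as part of RUNX1 cannot be read from the list.

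**Figure D2:**
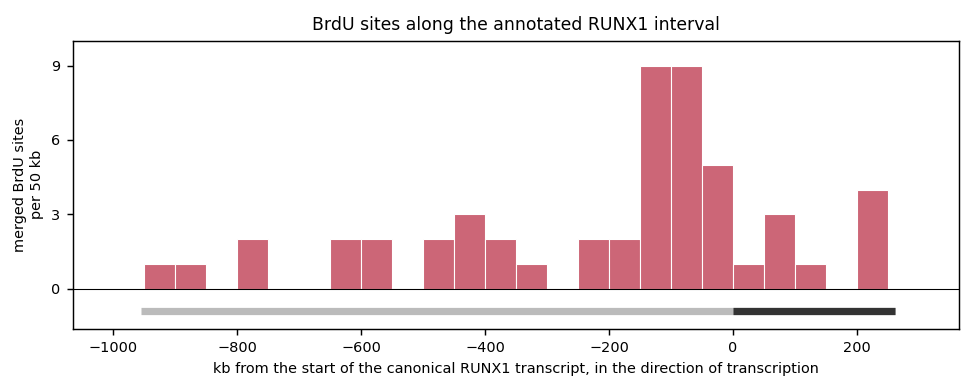
Merged BrdU sites in steps of 50 kb along the annotated RUNX1 interval, by distance from the start of the canonical transcript in the direction of transcription (grey bar, gene interval, dark bar, canonical transcript). Of 52 sites, 43 lay upstream of the canonical start and 27 of these within 250 kb of it.

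Sites where 3 or more peaks overlapped were found in 5 genes: RUNX1 (depth 5), BCL2 (depth 4), ALK, ERG and EGFR (depth 3 each). Genes with such a site made up 2.27% of all protein-coding genes, and 2.33 members would have had one from the share among genes of like length. Tandem arrays, sites in which at least 70% of bases equal those at a fixed offset of up to 120 bases, were found in 4 genes (RB1, with 2 sites, RUNX1, EGFR and BCL2). In all protein-coding genes 2.56% had an array, and 4.40 members would have had one from their genes of like length. Sequences of 1 RB1 array and the EGFR array are shown because their repeats set them apart from the other sites, each in the direction of transcription of its gene and read from hg38. In RB1 the capitals mark 1 unit of 53 bases, which recurs without a mismatch (chr13:48428047-48428205, plus strand). In EGFR they mark 50 bases whose copies in the stretch shown match at 97.0% (chr7:55167281-55167430, plus strand).
RB1 intron 17 array: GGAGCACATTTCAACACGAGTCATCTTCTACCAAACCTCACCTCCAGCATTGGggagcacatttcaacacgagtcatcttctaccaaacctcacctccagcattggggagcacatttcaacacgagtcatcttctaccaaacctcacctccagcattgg
EGFR intron 15 array: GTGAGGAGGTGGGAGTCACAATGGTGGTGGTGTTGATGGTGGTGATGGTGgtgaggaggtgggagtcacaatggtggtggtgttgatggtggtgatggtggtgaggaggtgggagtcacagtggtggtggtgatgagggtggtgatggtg

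The deepest site of the 56 genes lay in intron 6 of RUNX1 (chr21:34843113-34843609), where a stretch of 203 bases was covered by 5 peaks at once. The site of depth 3 in ALK lay in intron 1 (chr2:29770861-29771342), with 210 bases under 3 peaks at once. In the stretches below the capitals mark the bases under that many peaks (RUNX1 chr21:34843147-34843446 and ALK chr2:29770907-29771206, both on the minus strand).
RUNX1 intron 6: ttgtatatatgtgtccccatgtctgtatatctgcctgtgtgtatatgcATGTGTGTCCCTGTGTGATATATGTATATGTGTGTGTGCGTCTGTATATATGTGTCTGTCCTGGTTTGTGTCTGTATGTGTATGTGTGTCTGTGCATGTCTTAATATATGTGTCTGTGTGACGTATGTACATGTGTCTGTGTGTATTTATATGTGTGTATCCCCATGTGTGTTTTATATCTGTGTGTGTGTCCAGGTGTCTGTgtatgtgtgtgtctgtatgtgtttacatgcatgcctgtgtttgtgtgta
ALK intron 1: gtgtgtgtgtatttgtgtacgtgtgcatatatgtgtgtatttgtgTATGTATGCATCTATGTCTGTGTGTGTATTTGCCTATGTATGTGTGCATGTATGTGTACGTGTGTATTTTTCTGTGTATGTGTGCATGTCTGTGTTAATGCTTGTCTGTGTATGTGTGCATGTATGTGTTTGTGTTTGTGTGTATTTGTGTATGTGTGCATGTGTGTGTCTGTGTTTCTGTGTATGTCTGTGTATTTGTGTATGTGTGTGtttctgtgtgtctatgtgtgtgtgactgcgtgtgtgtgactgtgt

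The sites of depth 3 in ERG (chr21:38622392-38623178, upstream of the canonical transcript) and EGFR (intron 1, chr7:55095636-55096028) each held an unbroken repeat of 2 bases, of 24 and 21 bases in length. The capitals mark that repeat (ERG chr21:38622872-38623015, minus strand, and EGFR chr7:55095662-55095802, plus strand).
ERG upstream: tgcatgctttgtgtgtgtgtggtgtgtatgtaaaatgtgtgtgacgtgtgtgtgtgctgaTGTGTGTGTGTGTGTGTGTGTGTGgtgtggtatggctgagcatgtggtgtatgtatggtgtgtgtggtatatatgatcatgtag
EGFR intron 1: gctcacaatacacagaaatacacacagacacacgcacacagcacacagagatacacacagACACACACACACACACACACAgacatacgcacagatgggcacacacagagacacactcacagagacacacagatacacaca

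All 5 of these deep sites were runs of alternating TG on one strand and CA on the other, in an imperfect form. The share of base steps that were TG or GT on one strand, taken on the strand where it was higher, ran from 46.0% to 63.4% over the 5 sites. Its median was 15.2% in the 102 member sites of depth 1 and 17.4% in the 25 of depth 2. Over the sites of other protein-coding genes the medians were 15.5% at depth 1, 16.3% at depth 2 and 23.7% at depth 3 to 5 (542 sites), and 25.3% of the last group reached a share of 40%. In the 56 genes 14 of 132 sites (10.6%, exact 95% interval 5.92 to 17.2%) reached it, against 4.70% of the sites in other protein-coding genes and 3.19% in genes of like length. These 14 sites came from only 5 genes, with 5 each in EGFR and RUNX1, 2 in BCL2 and 1 each in ALK and ERG. This measure was chosen after the sequences were read, and the values describe these sites only.

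**Figure D3:**
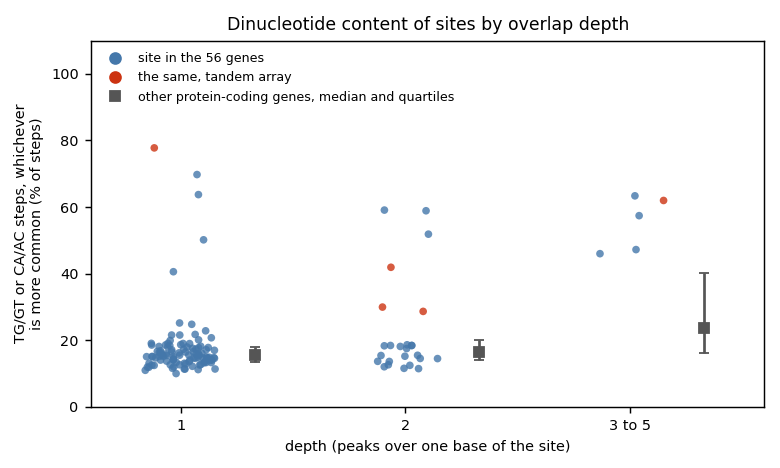
Share of base steps that are TG or GT (or CA or AC, whichever is more common) in each of the 132 sites of the 56 genes, by overlap depth, with tandem arrays in red, and the median and quartiles over sites of other protein-coding genes as grey squares. All 5 member sites of depth 3 to 5 lay between 46.0% and 63.4%, while the medians at depth 1 and 2 were 15.2% and 17.4%.

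Among the 13 receptor tyrosine kinases, which pass growth signals across the cell membrane, 5 genes held 26 sites where 18.3 were expected (ratio 1.42, 0.928 to 2.08), and 8 genes held none. MET, the receptor of hepatocyte growth factor, was the densest member of the list, with 14 peaks in 12 sites over chr7:116672196-116798377, 126 kb in length (9.51 per 100 kb). Its 90 genes of like length on chromosome 7 would have given 1.18 sites (ratio 10.2, 5.26 to 17.8). None of them was denser, although 42 held a site and the most in one of them was 11. The MET sites were spread along the gene, in 7 of its 20 introns, with 3 each in introns 1 and 19 and 2 in intron 2, and 2 of the 12 had overlapping peaks. None was an array, and AT content ran along all 12 sites between 54.8% and 65.1%. One MET site overlapped exon 13, where 101 of its 201 bases were coding sequence. It is printed because it is the only site that crossed from an intron well into a coding exon, with the coding bases in capitals (chr7:116771398-116771598, plus strand).
MET intron 12 and exon 13: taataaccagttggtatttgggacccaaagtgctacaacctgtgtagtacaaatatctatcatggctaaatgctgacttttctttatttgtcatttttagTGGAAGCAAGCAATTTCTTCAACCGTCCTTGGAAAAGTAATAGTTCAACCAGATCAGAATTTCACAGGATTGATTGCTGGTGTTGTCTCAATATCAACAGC

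EGFR, the receptor of epidermal growth factor, had 10 peaks in 6 sites over 193 kb (chr7:55019017-55211628), where 3.50 were expected (ratio 1.71, 0.629 to 3.73). Of its 65 genes of like length, 10 were denser. The EGFR sites lay in intron 1 (3 sites), intron 15 (1 site, the array above) and intron 27 (2 sites, 0.705 kb apart), and 5 of the 6 were rich in TG or CA steps. ROS1, a receptor fused to several partners in lung cancer, had 6 peaks in 6 sites over 139 kb (chr6:117287353-117425942), where 1.15 were expected (ratio 5.21, 1.91 to 11.3). Of its 89 genes of like length, 6 were denser. Unlike those of MET and EGFR, the ROS1 sites never had overlapping peaks, and each was in a different intron (18, 24, 27, 34, 39 and 43), with gaps of 10.3 to 21.1 kb. The one in intron 18 reached into exon 18 by 1 base. ALK, fused to EML4 in lung cancer, had only its deep site in intron 1 over 729 kb, where 1.32 were expected. PDGFRB, a platelet-derived growth factor receptor of fibroblasts, had 1 site in intron 1. No site was found in the longest receptor, ERBB4 (1163 kb, 1.92 expected), or in NTRK3 (397 kb, 3.48 expected), FGFR2, KIT, PDGFRA, FGFR1, RET or FGFR3.

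The 10 genes of signalling, the cell cycle and survival held 19 sites where 18.8 were expected. Of the 19, 13 were in NOTCH2, a receptor that sends a cleaved fragment to the nucleus when a neighbouring cell presents its ligand. NOTCH2 had 16 peaks over chr1:119911553-120100779, 189 kb in length (6.87 sites per 100 kb), where its 112 genes of like length on chromosome 1 gave 3.28 (ratio 3.97, 2.11 to 6.78), and 10 of these 112 were denser. For 9 of the 13 sites, those in introns 1 and 2 and upstream of the canonical start, another place on chromosome 1 matched at least 90% of the site at 95% identity or more. Chromosome 1 carries partial copies of NOTCH2, the NOTCH2NL genes, and short reads from such copies can be placed on more than one of them. The other 4 sites lay in introns 5 and 22 and had no such copy. What part the copies play in the count was not tested.

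BCL2, an inhibitor of cell death that is switched on by translocation in follicular lymphoma, had 6 peaks in 2 sites. They lay 0.424 kb apart in intron 2, 69.3 and 70.5 kb from the nearest exon, and both were rich in TG steps. PIK3R1, the regulatory subunit of phosphoinositide 3-kinase, had 2 sites where 1.31 were expected. BRAF, a kinase between RAS and MEK, had 1 site in intron 1 against 4.10 expected, the largest expected number in the list. CDK6, a kinase that drives entry into S-phase, had 1 site in intron 2 against 3.84 expected. ABL1, PIK3CA, NOTCH1, MDM2 and CCND1 had none, and for these genes between 0.08 and 2.13 sites were expected.

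Among the 10 tumour suppressors only NF1 and RB1 had sites, 11 in all where 15.4 were expected (ratio 0.716, 0.358 to 1.28). NF1, which shuts off RAS, had 10 peaks in 9 sites over 287 kb (chr17:31094927-31382116), where 0.87 were expected from 17 genes of like length on chromosome 17 (ratio 10.3, 4.71 to 19.5). Just 5 of those 17 had a site, the most in one of them was 8, and 1 of the 17 was denser than NF1. Of the NF1 sites, 5 were in intron 1 and 1 each in introns 8, 27, 36 and 46. Intron 36 is the one that carries small genes on the other strand, and its site overlapped EVI2B. NF1 has pseudogenes on other chromosomes, but none of its 9 sites had a near copy elsewhere at the strict cut used for near copies. A looser cut asked for 80% identity over 80% of a site. At that cut the site in intron 27 had 3 copies elsewhere and 1 site in intron 1 had 1, while the other NF1 sites had none. What part such copies play in the NF1 count was not tested. RB1, the brake on entry into S-phase, had 4 peaks in 2 sites, both arrays in intron 17, 0.323 kb apart, where 1.02 were expected. The intron holds the receptor gene LPAR6, and both sites overlapped the interval of that gene too.

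No site was found in PTPRK (552 kb, 3.61 expected), FBXW7 (216 kb, 3.58 expected), APC, NF2, SMAD2, SMAD4, CDKN2A or VHL. PTPRK is a receptor phosphatase fused to R-spondin genes in colon cancer, and 18 of its 20 genes of like length on chromosome 6 had a site. FBXW7 marks cyclin E and MYC for destruction, and 39 of its 68 genes of like length had a site. A count of 0 allows up to 3.69 sites at the upper end of its exact Poisson interval, so that for neither gene was a difference from the expected number detectable.

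Of the 10 chromatin regulators, 6 held 15 sites where 21.2 were expected (ratio 0.707, 0.396 to 1.17). KMT2A, a histone H3 lysine methyltransferase joined to many partners in leukaemia, had 6 peaks in 4 sites over 90.4 kb (chr11:118436456-118526832), where 2.11 were expected. They fell in intron 1 (2 sites, both with overlapping peaks), exon 3 and intron 30. The exon 3 site lay wholly in coding sequence over its 438 bases. NSD1, a histone H3 methyltransferase joined to NUP98 in leukaemia, had 3 sites in introns 5, 12 and 15 (2.62 expected), and PBRM1, a subunit of the PBAF remodelling complex, had 3 in introns 3 and 19 (2.76 expected). SETD2, which trimethylates H3 lysine 36 behind the polymerase, had 2 sites in intron 12, 0.631 kb apart (3.04 expected). KMT2C had 2 sites in intron 6 (3.44 expected), and both had near copies on other chromosomes. The acetyltransferase EP300 had 1 site in intron 10, while its relative CREBBP, ARID1A, ARID1B (435 kb, 2.53 expected) and KMT2D had none.

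The 13 genes grouped as fusion partners and transcription factors held 61 sites with RUNX1 and 9 without it, where 18.6 were expected (ratio 0.485, 0.222 to 0.920). The lower ratio leaves out the gene with the most sites. Other genes that take part in fusions, such as ROS1, ALK, KMT2A and NSD1, were counted in other groups. No depletion of fusion genes can therefore be read from this ratio. ERG, an ETS factor joined to TMPRSS2 in prostate cancer, had 9 peaks in 6 sites over 282 kb (chr21:38380027-38661780), where 1.95 were expected from 7 genes of like length. All 6 lay upstream of the start of the canonical transcript, by 19.5 to 131 kb, in the part of the interval that other annotated transcripts cover. When genes were reduced to their canonical transcripts, ERG had no site. FLI1, another ETS factor, EML4, a microtubule-binding protein, and MECOM, a zinc finger factor, each had 1 site in intron 1, where 2.84, 2.16 and 1.17 were expected. FOXP1 (629 kb, 1.14 expected), ETV6 (246 kb, 2.64 expected), TCF7L2 (217 kb, 2.96 expected), BCR, TMPRSS2, EWSR1, BCL6 and MYC had none.

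**Figure D4:**
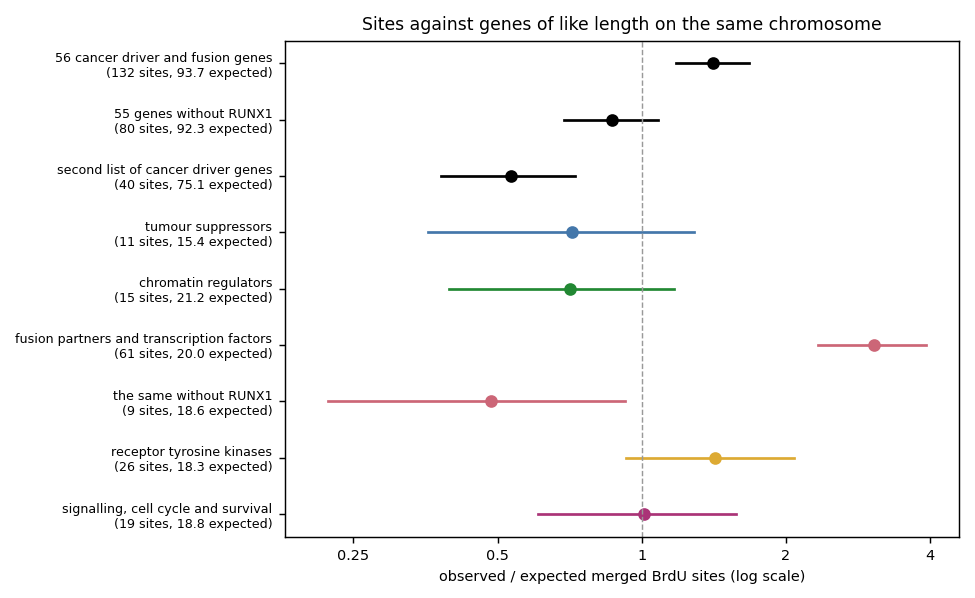
Observed over expected merged BrdU sites (points, log scale) with the exact Poisson 95% interval of the observed count, for the 56 genes, the same without RUNX1, a second list of 68 cancer driver genes, and the 5 role groups. With RUNX1 the ratio of the fusion partners and transcription factors was 3.05, and without it 0.485.

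A set of introns in which recurrent fusions are known to break was looked at one by one. It held 21 introns of 9 genes, 175 kb in all, chosen from general knowledge, and it is not complete: introns 1, 13 and 14 of BCR, 1 of ABL1, 19 of ALK, 6, 13 and 20 of EML4, 4 and 5 of ETV6, 11 of RET, 8 to 11 of KMT2A, 7 to 10 of EWSR1, and 1 and 2 of TMPRSS2. None of the 21 held a site. Introns of RUNX1, NSD1 and ROS1, which also take part in fusions, were not in the set, and in these genes introns did hold sites (5 in intron 2 of RUNX1, for example), so the count of 0 depends on the choice of introns. Both genes of the pair BCR and ABL1 were without any site over their whole length, as were TMPRSS2 and EWSR1. Their partners ERG and FLI1 held sites, but no intron of ERG or FLI1 was in the set. Both genes of the pair EML4 and ALK were hit outside the listed introns. At the density of the other protein-coding genes, 10.3 sites per Mb, so short a length would be expected to hold few sites, and the absence says little about these introns.

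Over all 56 canonical transcripts, 49 of 1113 introns (4.40%) held a site, and 17 of the 49 were the longest intron of their gene. The introns with a site had a median length of 16.6 kb, and those without one 1.63 kb. Among introns of 10 kb or longer 31 of 159 (19.5%) were hit, and among shorter ones 18 of 954 (1.89%). These shares were neither taken per kb nor set beside introns of other genes, so no preference for long introns can be read from them. The first introns held 21 of the 132 sites (15.9%, 10.1 to 23.3%), or 26.2% (17.0 to 37.3%) without RUNX1, against 21.1% for sites in other protein-coding genes. They make up 23.2% of the length of the canonical transcripts, and with genes reduced to those transcripts they held 26.9% of the sites. Exons were overlapped by 3 sites (2.27%, 0.471 to 6.50%), those in MET, KMT2A and ROS1, against 3.47% in other protein-coding genes. The share was 3.75% without RUNX1, 3.85% when genes were reduced to their canonical transcripts and 6.06% with the exons of all transcripts, so no direction can be read from it. Exons make up 4.53% of the canonical transcripts. A single site (0.758%, 0.0192 to 4.15%) lay within 5 kb of a canonical start, or 1.25% (0.0316 to 6.77%) without RUNX1. The share was 6.81% in other protein-coding genes and 4.24% in genes of like length, and the interval without RUNX1 included the latter.

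**Figure D5:**
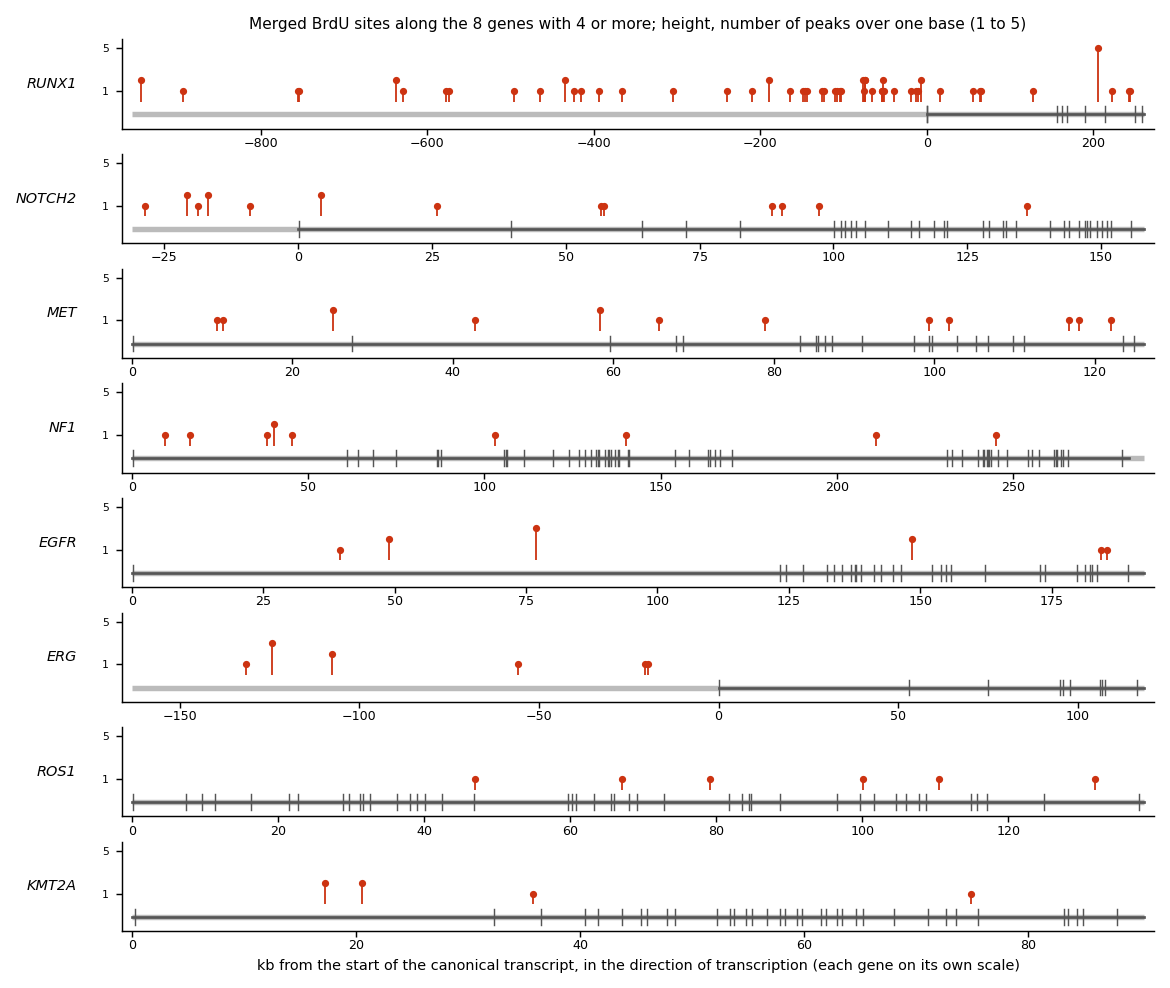
Positions of merged BrdU sites (red, height by overlap depth from 1 to 5) along the 8 genes with 4 or more, in kb from the start of the canonical transcript (dark line with exons as ticks, grey line for the rest of the annotated gene, each gene on its own scale). In MET, NF1, EGFR, ROS1 and KMT2A every site lay inside the canonical transcript, while 43 sites of RUNX1, 5 of NOTCH2 and all 6 of ERG lay upstream of it.

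Other features of the member sites were set beside those of other genes. Of the 132 sites, 102 had depth 1, 25 depth 2, 3 depth 3, 1 depth 4 and 1 depth 5. Overlapping peaks were present in 22.7% (15.9 to 30.8%), against 20.8% in other protein-coding genes. Arrays made up 3.79% (1.24 to 8.62%) against 5.01%, and 8.33% of member sites when matches at 60% of bases were enough. The median AT content was 61.3% against 61.5%, and the median width was 282 bp against 280 bp. T was more common than A on the sense strand in 59.8% (51.0 to 68.3%) of member sites, against 62.0%. Near copies elsewhere in the genome were more common, at 13 of the 132 sites (9.85%, 5.35 to 16.3%) against 3.47% in other protein-coding genes and 3.83% in genes of like length, 9 of them in NOTCH2, 2 in KMT2C and 1 each in MET and RUNX1.

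A second list of 68 other cancer driver genes was counted the same way for context. It had 47 peaks in 40 sites over 10.7 Mb, with 17 of 68 genes (25.0%) hit. Genes of like length would have given 75.1 sites, a ratio of 0.533 (0.381 to 0.725, counting error only). This list too was chosen with earlier results of these data known. Its ratio was not recomputed with any gene left out or with genes reduced to their canonical transcripts. No depletion of cancer driver genes can therefore be read from it.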

How the data were processed

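The authors aligned BrdU-Seq and Input DNA reads to hg38 (Bowtie2 2.3.3.1, SAMtools 1.4 and MACS2 2.1.0 per the labels), called BrdU peaks over Input at each time and deposited all peaks as 1 pooled list of chromosome, start and end positions in bp, with no height, score or time. The limits given to MACS2 were a fold range of 8 to 30 and p of 1e-05. No per-sample values were used. RNAPII and PCNA ChIP-Seq samples (14 and 16 h, 1 each) were not analysed here.

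The members, role groups and lists were chosen with earlier results of these data known. Starts were read as counted from 0, peaks that overlapped or touched were merged, and an overlap of 1 bp with a gene counted. Protein-coding genes, canonical transcripts and exons came from GENCODE 44. Genes of like length were protein-coding, outside the 56, on the same chromosome and within 1.3-fold in length, widened to 1.5-fold and 2-fold where fewer than 5 were found. Their sites per bp times the length of a member gave its expected number. RUNX1 had 1 such gene within 1.5-fold and no further one within 2-fold. Intervals are exact Poisson or Clopper-Pearson at 95% and cover counting error only. Near copies were found with minimap2 2.31 (at least 95% identity over 90% of a site, over 10 kb away). Named in full were the 12 members with most sites, the 5 densest with 3 or more, those with a site of depth 3 or an array, the 5 longest with no peak, the 3 farthest above and below their genes of like length among those with 3 or more expected, and the fusion pairs. Of the last comparison only NOTCH2 and EGFR were above. Overlap, merging and repeat functions were tested on simulated data and against bedtools 2.31.1. Python 3.11.15, pandas 2.3.3, SciPy 1.17.1 and pysam 0.24.0 were used. Some array sequences are not reported here.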

Additional observations from a re-analysis of the deposited data

How the results depend on the processing

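No paired analysis was possible because peaks carry neither sample nor repeat, so replicates could not be left out in turn either. The 11 results were recomputed under 50 alternatives, of which 12 moved a count by over 1.5 times or a value outside its counting interval. Leaving out RUNX1, the gene with the most sites, lowered peaks to 105, sites to 80, density from 11.3 to 7.66 per Mb and the ratio to genes of like length from 1.41 to 0.867, and raised the share in first introns from 15.9% to 26.2% (for peaks, sites and first introns chosen after seeing the data). Reducing each gene to its canonical transcript, an alternative added after seeing the data, gave 102 peaks, 78 sites, 7.68 per Mb, a ratio of 0.956 and 26.9% in first introns. Counting peaks without merging gave 14.6 per Mb, and taking the 10 genes nearest in length gave a ratio of 1.16. The direction of the ratio thus depended on RUNX1. The numbers of members with a peak (22 or 23) and of members above the median of their genes of like length (21 or 22) kept within 1.5 times. The share with overlapping peaks stayed between 21.8% and 25.0%. The array share (3.79%) ran from 3.03% to 8.33% (60% of bases) and the exon share (2.27%) from 1.52% to 6.06% (exons of all transcripts), inside their wide counting intervals only. Leaving out sites with a near copy was run for sites (119) and the ratio (1.31) alone, after seeing the data. A pooled list without heights gives no time of replication, and genes that replicate at other times or align poorly can lack peaks.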
